A study of Mus musculus with 30 samples.

Results

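ATAC-seq of sorted mouse retinal ganglion cells (RGCs) 1 day after optic nerve crush was compared with ATAC-seq of cells from uninjured animals, using the libraries of 1 batch only. The comparison holds 6 of the 15 ATAC libraries and of the 30 samples of the series, RNA libraries included: 3 labelled no crush, called day 0 here, and 3 labelled crush day 1, chosen by their labels and by the batch column of the authors' covariate table, where all 6 carry batch 2. Every ATAC sample and every day 1 RNA sample has the strain label C57BL/6, while day 0 RNA replicates 1 to 3 are labelled C57BL/6, C57BL/7 and C57BL/8. No transgene, age or sex is given. Retinas were dissociated with papain, and RGCs were sorted by fluorescence. The label of the sort does not name the marker. The labels do not say whether replicates came from separate animals or from pools, so the p-values measure the spread between these libraries, which may be technical. The other ATAC libraries, 3 of day 0 and 3 of day 3 in batch 1 and 3 of day 3 in batch 2, appear below only as reference values, and RNA of day 0 and day 1, 3 libraries each, was set beside the peaks.

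In ATAC-seq a transposase cuts DNA where chromatin is open and leaves adapters at the cut, so that reads pile up at promoters, enhancers and insulators. RGCs send the output of the retina to the brain through the optic nerve, and crushing the nerve damages their axons at a distance from the cell body. The injury signal reaches the nucleus through a kinase cascade of DLK and JNK, whose targets include the AP-1 factors, made of JUN, FOS and ATF proteins, and the factors of the integrated stress response, ATF4 and CHOP. Interferon response factors (IRFs) and the STAT proteins bind the promoters of genes that interferon induces, and CTCF marks insulators and the anchors of chromatin loops.

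The RNA libraries held the transcripts that define RGCs: in day 0 RNA, Thy1, a surface protein of RGCs, stood at 1841, 1834 and 1958 CPM (counts scaled to library size), and Rbpms, an RNA-binding protein of RGCs, at 583, 549 and 605 CPM. The ATAC libraries of both days had open promoters at Pou4f1, Pou4f2, Rbpms and Thy1, whose values are given further on.

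The day 1 libraries differed from the day 0 libraries in the share of their reads that fell into peaks. In the authors' covariate table, this share, counted over each library's own narrow peaks, was 42.7%, 49.6% and 39.2% in day 0 replicates 1 to 3 and 15.7%, 18.6% and 18.4% in day 1 replicates 1 to 3. The groups did not overlap, and the mean was 43.8% ± 5.29 (SD, n = 3) on day 0 and 17.6% ± 1.62 (SD, n = 3) on day 1, a difference of -26.3 percentage points (exact permutation test, two-sided, p = 0.1, the smallest value that 3 libraries against 3 allow). Counted over the peaks shared by all libraries, and per uniquely mapped read, the share was 47.4% ± 4.61 (SD, n = 3) and 26.1% ± 1.28 (SD, n = 3). Fewer peaks were called per library on day 1, 157899 to 227908 against 335660 to 380066, at similar numbers of uniquely mapped reads, 97673244 to 146241287 against 96557489 to 138012219. Counts inside peaks were 26568922 to 38742127 on day 1 and 42334565 to 72579102 on day 0. Enrichment at transcription starts was 8.23 ± 1.63 (SD, n = 3) on day 1 and 8.44 ± 0.22 (SD, n = 3) on day 0 (exact permutation test, p = 0.9).

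**Figure D1:**
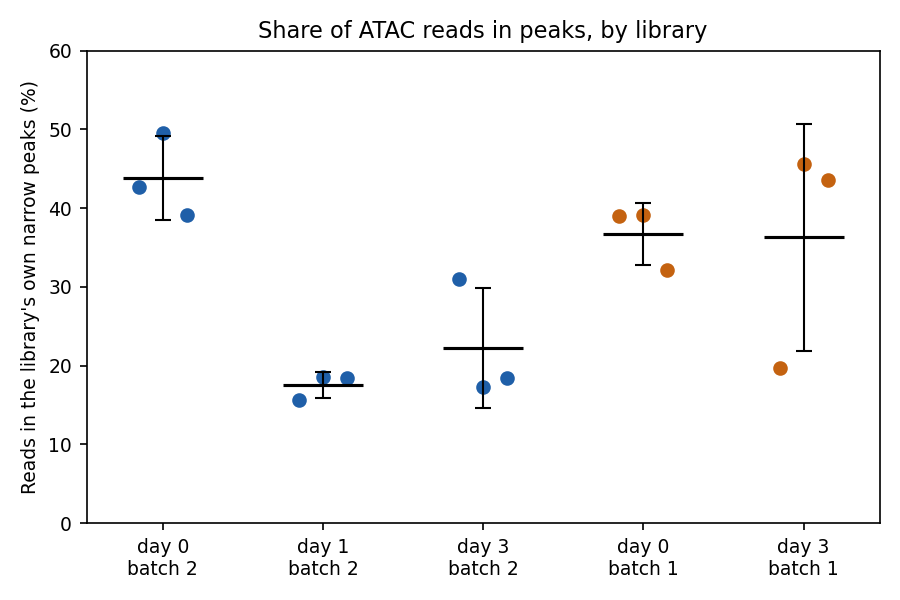
Share of ATAC reads in each library's own narrow peaks, in percent, by day and batch. Each point is a library, the horizontal line is the group mean and the error bar its SD (n = 3). Day 1 libraries lie between 15.7% and 18.6%, and day 0 libraries of the same batch lie between 39.2% and 49.6%. Day 3 libraries span 17.3% to 45.6%.

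Within batch 2, day and the share of reads in peaks cannot be told apart: no day 1 library had a share near that of a day 0 library. Results are therefore given in 3 forms: with standard scaling (TMM, which sets the typical peak to no change), after removing from each library the smooth trend of its log counts with peak strength, called "trend removed" here, and from a fit to all 15 ATAC libraries with batch and the share of reads in peaks as terms. With the share of reads as a term inside the 6 libraries alone, edgeR called no peak at an adjusted p under 0.05, and 15546 peaks had an unadjusted p under 0.05. In the text, "rose" and "fell" refer to standard scaling and adjusted p unless another form is named. Replicates were not paired by number unless this is stated.

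Of 151626 peaks tested, 22389 (14.8%) rose and 22035 (14.5%) fell on day 1, 29.3% in all (edgeR quasi-likelihood test, adjusted p under 0.05). Only 327 of the falls reached 2-fold, against 8232 of the rises. Once the trend was removed, 11898 peaks (7.85%) rose and 8585 (5.66%) fell, 16150 calls were shared with the same direction, and 300 changed direction. In the fit to all libraries with batch and share of reads as terms, 855 (0.564%) rose and 40 (0.0264%) fell, and 424 peaks, 398 higher and 26 lower, were called in one direction in all 3 forms. The values of the 2 groups did not overlap in 65813 peaks (43.4%). In the authors' deposited table of this comparison, 5773 peaks had an adjusted p under 0.05, 2520 higher and 3253 lower, and 4060 of them were also called here in the same direction. Its column label names neither the libraries nor the model used. Single promoters differed in direction or not: Atf4 stood at 0.23 there, past no threshold, against -0.33 here, and Tap1 at -0.50 against -0.94.

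The direction of change followed peak strength. In the decile of peaks with the fewest counts, the median log2 fold change was 0.54, and 32.3% of peaks rose while 0.284% fell. In the strongest decile, of which 82.9% were promoters, the median was -0.42, with 1.06% rising and 75.7% falling. After trend removal the medians of all deciles lay between -0.05 and -0.02, which the removal itself brings about, since it acts along peak strength.

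**Figure D2:**
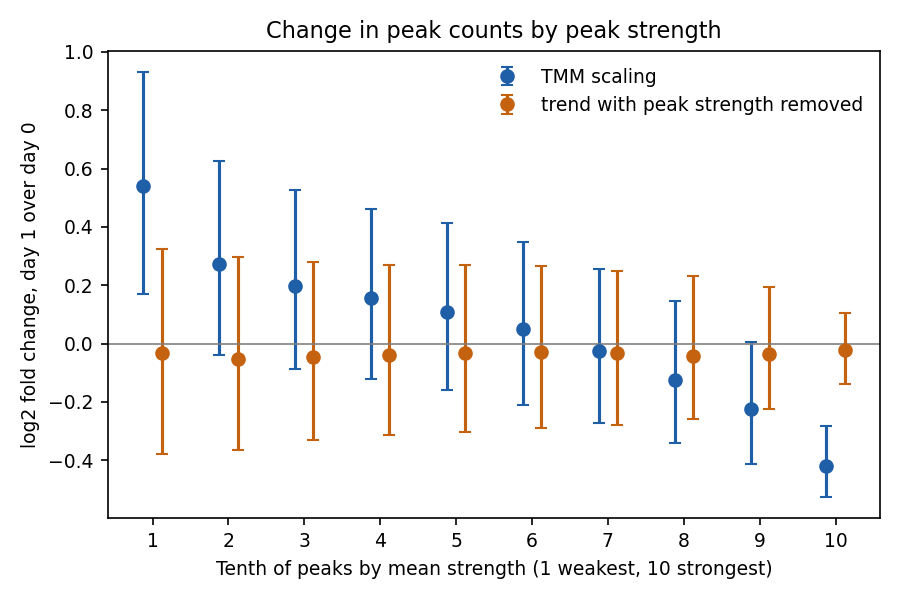
Median log2 fold change of day 1 over day 0 (points) and its lower and upper quartiles (bars) in deciles of peaks ordered by mean counts, from the weakest (1) to the strongest (10). With standard scaling the median goes from 0.54 to -0.42. Once the trend was removed it stays between -0.05 and -0.02, as the removal along peak strength sets it near 0.

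Classes of peaks followed the same order. Promoters, taken within 3 kb of a start in the authors' annotation and making up 26.0% of peaks, had a median log2 fold change of -0.14, with 8.67% rising and 31.9% falling. Distal intergenic peaks (25.4% of peaks, median 0.03) rose in 19.1% and fell in 10.8%, and peaks in introns after the first (24.3% of peaks, median 0.11) rose in 17.3% and fell in 6.60%. After trend removal, promoters had 7.47% higher and 5.85% lower, close to the 7.85% and 5.66% of all peaks. Within deciles of strength, promoters and other peaks had medians of -0.43 and -0.32 in the strongest decile and 0.14 and 0.10 in the fifth. In the single-library peak calls of the authors, 17139 of the tested peaks were overlapped by a call in all 3 day 0 libraries and in no day 1 library, and 123 showed the reverse. Of the 17139, edgeR called 2065 lower, and of the 123 it called 121 higher.

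Within batch 2, the promoters of interferon-induced genes fell on day 1 against day 0. This list of 34 genes was drawn up after the values were seen, so its counts are a description. Of its 95 tested peaks, 44 (46.3%) fell and 2 rose, against 14.5% and 14.8% of all peaks, and the median log2 fold change was -0.43 against 0.03. Once the trend was removed 36 fell and 2 rose, with all libraries and the batch term 29 fell and 0 rose, and with the share of reads as a further term 5 fell and 0 rose. Of 50 promoter peaks, 33 fell, against 31.9% of all promoter peaks. Of the promoter peaks closest to the start of 11842 genes, 62.9% fell, so this count alone does not set the list apart. Once the trend was removed, the median of the 50 was -0.45, against -0.02 for all promoter peaks. The median of the 95 peaks stayed below that of all peaks under each scaling, at -0.17 against 0.28 with library size only and -1.03 against -0.58 when scaled to uniquely mapped reads.

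The peak with the largest fall of all that met the naming rule lay at the start of Gbp10, a GTPase that interferon induces (chr5:105238765-105240081, mm10). It stood at 8.60, 11.3 and 11.5 CPM on day 0 and 2.60, 2.14 and 5.85 CPM on day 1. No day 1 library reached the lowest day 0 library. The log2 fold change was -1.60 ± 0.26 (SE; edgeR adjusted p = 0.000452), -1.47 with the trend removed (adjusted p = 0.00543) and -1.45 with all libraries, batch and share of reads (adjusted p = 0.12). In the other libraries, on a CPM scale set over all 15, the same peak had 7.56 to 13.4 CPM on day 3 of batch 2, 0.54 to 0.70 CPM on day 0 of batch 1 and 0.71 to 1.44 CPM on day 3 of batch 1. Batch 1 libraries of both days were low at this peak.

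Tap1 loads peptides onto class I histocompatibility molecules. Its promoter peak (chr17:34185306-34188707) gave 70.5, 76.5 and 70.0 CPM on day 0 and 41.6, 32.5 and 39.4 CPM on day 1. The groups did not overlap, and the log2 fold change was -0.94 ± 0.09 (SE; edgeR adjusted p = 4.6e-05), -0.51 with the trend removed (adjusted p = 0.00295) and -0.73 with all libraries, batch and share of reads (adjusted p = 0.0483). The promoters of Psmb8, a subunit of the immunoproteasome, and of Irf7, a factor that drives interferon genes, fell by 0.84 and 0.87 on the log2 scale, and both were also called with all libraries, batch and share of reads (edgeR adjusted p = 0.029 each). Irf9, whose protein carries the interferon signal to DNA, had a promoter log2 fold change of -0.72.

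The promoters of Tgtp2, Ifit1 and Ifih1 are shown because the letters that IRF proteins recognise, GAAA, 2 bases of any kind and GAAA again on either strand, stand inside them and inside the peaks that fell. The sequences are RefSeq's on GRCm38.p6, 250 bases before to 50 after the annotated start, on the gene's strand, and the matches are in capitals.
Tgtp2: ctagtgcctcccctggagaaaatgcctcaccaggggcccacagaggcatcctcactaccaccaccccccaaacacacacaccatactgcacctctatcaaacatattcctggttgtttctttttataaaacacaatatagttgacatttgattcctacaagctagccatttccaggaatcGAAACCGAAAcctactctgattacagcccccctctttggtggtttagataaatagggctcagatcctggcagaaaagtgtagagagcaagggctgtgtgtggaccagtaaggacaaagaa
Ifit1: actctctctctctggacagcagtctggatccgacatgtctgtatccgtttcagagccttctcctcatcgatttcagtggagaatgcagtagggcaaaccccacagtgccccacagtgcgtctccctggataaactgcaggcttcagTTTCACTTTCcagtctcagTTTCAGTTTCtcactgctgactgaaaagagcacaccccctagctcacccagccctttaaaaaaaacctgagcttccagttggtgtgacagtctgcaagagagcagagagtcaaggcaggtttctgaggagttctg
Ifih1: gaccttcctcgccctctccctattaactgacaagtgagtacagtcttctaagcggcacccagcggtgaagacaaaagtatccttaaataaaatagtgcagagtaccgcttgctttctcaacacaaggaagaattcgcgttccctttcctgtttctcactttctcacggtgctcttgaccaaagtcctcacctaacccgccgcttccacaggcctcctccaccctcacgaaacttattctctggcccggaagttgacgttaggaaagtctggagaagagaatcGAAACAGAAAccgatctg
Tgtp2, a GTPase, has 1 match in this window at chr11:49064163-49064462, and its peak (chr11:49063669-49064641) went from 3.04, 3.80 and 3.67 CPM to 1.02, 0.80 and 1.87 CPM (log2 fold change -1.55 ± 0.25, SE; edgeR adjusted p = 0.000394). Ifit1, which binds foreign RNA, has 2 matches in its window at chr19:34640639-34640938. Its peak, much wider than the window (chr19:34639774-34644010), went from 19.7, 26.2 and 23.0 CPM to 10.7, 10.1 and 14.0 CPM (-0.99 ± 0.13, SE; adjusted p = 0.000121). In the window of Ifih1, a sensor of double-stranded RNA, at chr2:62646206-62646505, the single match begins at base 283, after the start. Its peak fell by 0.75 ± 0.11 (SE) on the log2 scale (adjusted p = 0.000158). No day 1 library overlapped the day 0 libraries at any of the 3 peaks. The 3 peaks were also called with the trend removed (-1.66, -0.69 and -0.39) and not with all libraries, batch and share of reads (-1.69, -0.88 and -0.46, edgeR adjusted p = 0.0771, 0.0934 and 0.201). CPM scaled over all 15 libraries was 0.22 to 0.44, 4.68 to 6.33 and 12.9 to 16.1 on day 0 of batch 1. On day 3 of batch 1 it was 0.24 to 0.60, 4.69 to 7.38 and 16.0 to 18.8. On day 3 of batch 2 it was 2.37 to 3.09, 15.2 to 21.0 and 28.4 to 32.8. Batch 1 libraries of both days were low at these peaks too.

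The match occurs in 3.43% of all 32817 promoter windows. Of 17681 windows that lie inside a tested peak, 527 hold it, and with the trend removed 83 of these peaks (15.7%) were lower and 36 (6.83%) higher, against 7.19% and 9% of all windows inside a peak. With standard scaling 375 of the 527 (71.2%) fell, against 69.2% of all such windows.

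RNA of the same genes was measured in other libraries. Of 31 interferon-induced genes tested, 2 rose and 0 fell at an adjusted p under 0.05, against 5.93% and 5.45% of the 13737 genes tested (edgeR). Ifit1 RNA stood at 10.0, 8.07 and 279 CPM on day 0 and 227, 358 and 146 CPM on day 1, so that day 0 replicate 3 lay among the day 1 libraries (log2 fold change 1.29, adjusted p = 0.381). Without that library the value was 4.74 (adjusted p = 1.3e-05). Ifih1 RNA behaved alike, with 2.27, 2.55 and 17.1 CPM on day 0 and 37.1, 32.8 and 10.9 CPM on day 1 (log2 fold change 1.86, adjusted p = 0.085, and 3.46 without day 0 replicate 3, adjusted p = 0.00125). The RNA libraries are other samples than the ATAC libraries, and the labels do not pair them.

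Peaks near marker genes of other retinal cells were counted in the same way. Of all peaks 14.8% rose and 14.5% fell, or 7.85% and 5.66% with the trend removed. Of 109 peaks annotated to markers of Müller glia and astrocytes, the supporting glia of the retina, 59 (54.1%) rose and 3 fell, with a median log2 fold change of 0.65. After trend removal 41 rose and 0 fell, with all libraries and batch 11 and 0, and with share of reads as a further term 1 and 0. Scaled to uniquely mapped reads, where the median of all peaks was -0.58, 11 rose and 33 fell, and the list's median was 0.04. The rises covered 16 of 19 peaks of Aqp4, the water channel of glial endfeet, 15 of 29 of Slc1a3, a glial glutamate transporter, and 7 of 11 of Rlbp1, which carries retinaldehyde in Müller glia. The summed level of the list was 686 to 738 CPM on day 0 and 749 to 970 CPM on day 1.

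The peak with the smallest p value of this list lay 26352 bases from the start of Slc1a3 (chr15:8614994-8616895) and was chosen after its value was seen. It had 2.39, 1.92 and 2.64 CPM on day 0 and 5.26, 4.82 and 5.16 CPM on day 1, with no overlap. The log2 fold change was 1.14 ± 0.16 (SE; edgeR adjusted p = 0.00018), 1.16 with the trend removed (adjusted p = 0.00214), 0.81 with all libraries and batch (adjusted p = 0.0504) and 0.33 with share of reads as a further term (adjusted p = 0.651). In RNA, 2 of 15 genes of the list rose and 0 fell, and Slc1a3 itself went from 4.93, 3.37 and 1.48 CPM to 5.64, 2.83 and 3.70 CPM (adjusted p = 0.706).

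Among markers of vascular cells, 41 of 106 peaks (38.7%) rose and 12 fell, and 28 and 10 did so with the trend removed. With all libraries, batch and share of reads none was called in either direction, and scaled to uniquely mapped reads 20 rose and 52 fell. Most of the rises belonged to the genes of 2 VEGF receptors: 12 of 14 peaks of Kdr and 19 of 25 of Flt1 rose, while 4 of 21 peaks of Pecam1, an adhesion protein of endothelium, fell and 0 rose. Outside Kdr and Flt1, the share of rises in the list was close to the 14.8% of all peaks. The Kdr peak with the smallest p value lay in an exon, 20942 bases from the start (chr5:75950883-75957516), and rose from 7.97, 9.27 and 10.3 CPM to 17.1, 19.4 and 23.9 CPM (log2 fold change 1.13 ± 0.13, SE; edgeR adjusted p = 6.3e-05). With the trend removed it was 1.40 (adjusted p = 0.000198), with all libraries and batch 0.70 (adjusted p = 0.113), and with share of reads as a further term 0.14 (adjusted p = 0.873). The summed level of the vascular list was 354 to 399 CPM on day 0 and 377 to 480 CPM on day 1. Of the list's genes 5 passed the RNA filter, and 0 changed. In bulk samples, a change in the number of cells of a type and a change in the openness of each cell cannot be told apart.

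Amacrine and horizontal cells, the inhibitory neurons of the retina, had 26 of 104 peaks (25.0%) higher and 3 (2.88%) lower. Of all peaks 14.8% rose and 14.5% fell. With the trend removed 20 (19.2%) were higher and 1 (0.96%) lower, against 7.85% and 5.66%. Scaled to uniquely mapped reads, 1 rose and 34 fell. Microglial and macrophage markers had 0 of 77 peaks higher and 20 (26.0%) lower, with the trend removed 2 and 3, and with library size only 8 and 3. Their summed level was 861 to 886 CPM on day 0 and 684 to 732 CPM on day 1, while in RNA 6 of 16 genes rose and 0 fell. Tyrobp, a signalling adaptor of microglia, had a 1.27-fold lower promoter peak, which reversed to 0.17 on the log2 scale with the trend removed. Its RNA rose 4.63-fold (edgeR adjusted p = 0.00848), and without RNA day 1 replicate 1 this call was lost (log2 fold change 1.06, adjusted p = 0.0648). The part of these cells in the results above was not tested.

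Rod markers moved with single libraries. Of 64 peaks, 0 rose and 11 (17.2%) fell with standard scaling, and 2 fell with the trend removed. With library size only 8 rose and 5 fell. Without day 0 replicate 1 there were 6 rises and 6 falls, and without day 0 replicate 2 there were 26 falls. The summed level of the list was 1182, 478 and 836 CPM in day 0 replicates 1 to 3 and 483, 586 and 457 CPM in day 1 replicates 1 to 3. Day 0 replicates 1 and 3 stood high, and replicate 2 lay inside the range of day 1.

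The promoter of Sag, the arrestin of rods, is shown as an example of these peaks, because it holds GGATTA, the letters that the photoreceptor factors CRX and OTX recognise (either strand, in capitals). The window is RefSeq's on GRCm38.p6 at chr1:87803430-87803729, and the letters occur in 7.06% of all promoter windows.
Sag: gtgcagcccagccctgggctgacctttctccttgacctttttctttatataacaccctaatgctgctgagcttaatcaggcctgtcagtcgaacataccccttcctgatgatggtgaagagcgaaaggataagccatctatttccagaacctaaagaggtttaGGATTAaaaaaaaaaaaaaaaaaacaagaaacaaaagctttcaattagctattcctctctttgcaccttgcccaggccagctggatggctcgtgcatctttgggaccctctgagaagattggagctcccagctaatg
The peak around it (chr1:87801455-87822203) had 163, 84.1 and 119 CPM on day 0 and 61.8, 85.9 and 50.1 CPM on day 1. Day 1 replicate 2 lay above day 0 replicate 2, and the log2 fold change was -0.88 ± 0.19 (SE; edgeR adjusted p = 0.00304), -0.40 with the trend removed (adjusted p = 0.165) and -0.25 with all libraries, batch and share of reads (adjusted p = 0.763). Sag RNA moved the other way, from 43.6, 15.9 and 12.5 CPM to 57.4, 52.3 and 82.7 CPM (log2 fold change 1.43, adjusted p = 0.0185), a call that was lost without RNA day 0 replicate 2 (1.19, adjusted p = 0.0753), without RNA day 1 replicate 3 (1.20, adjusted p = 0.0785) and with only the libraries of days 0 and 1 (adjusted p = 0.0616).

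**Figure D3:**
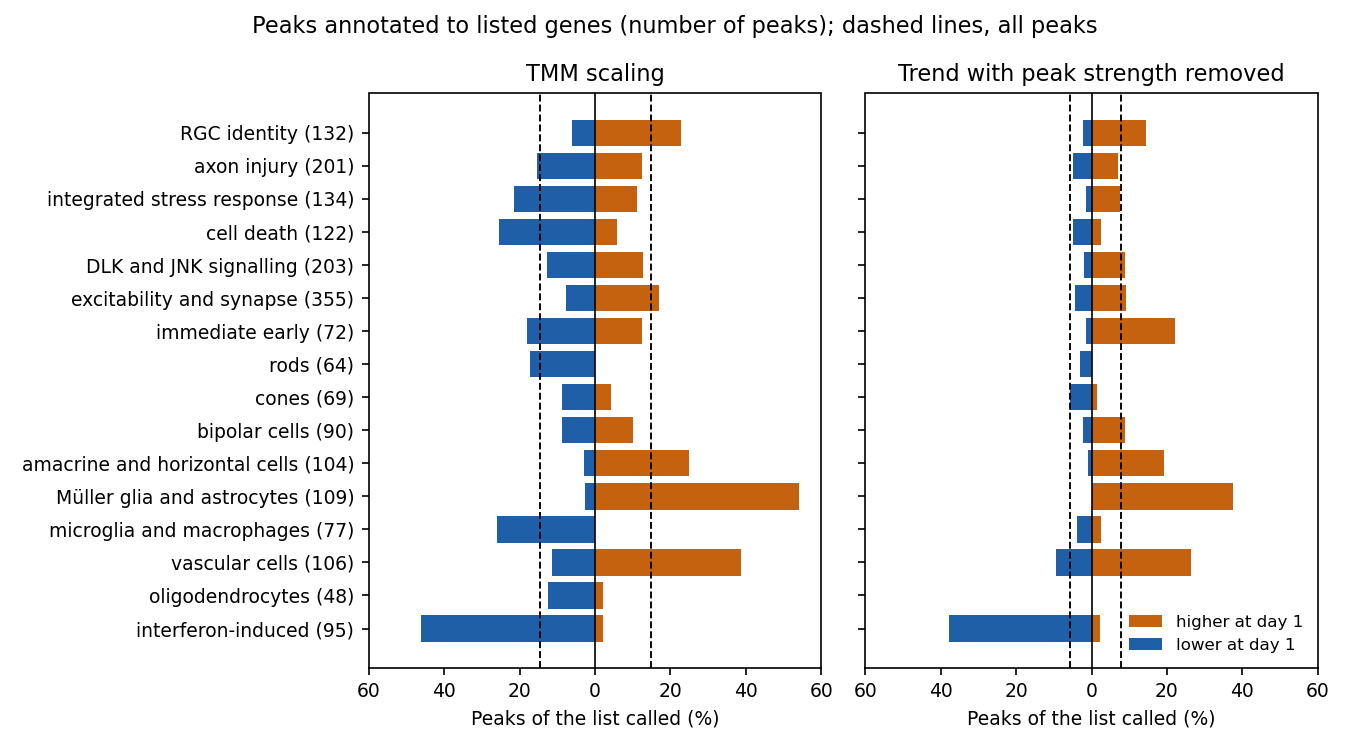
Percentage of the peaks annotated to each gene list that were called higher (right of 0) or lower (left of 0) on day 1, with the number of peaks in brackets. The left panel shows standard (TMM) scaling and the right panel the trend with peak strength removed, and dashed lines mark all peaks. Müller glia and astrocytes reach 54.1% higher and interferon-induced genes 46.3% lower on the left, and scaling to uniquely mapped reads, not shown, gave more lower than higher calls in every list, while library size only gave more higher than lower calls in every list except interferon-induced genes.

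Genes that identify RGCs had more rising than falling peaks. Of 132 peaks, 30 (22.7%) rose and 8 (6.06%) fell, against 14.8% and 14.5% of all peaks. Their median log2 fold change was 0.20. With the trend removed 19 (14.4%) rose and 3 (2.27%) fell, against 7.85% and 5.66%. With all libraries and batch 22 rose and 0 fell, and with share of reads as a further term 6 and 0. Scaled to uniquely mapped reads, 3 rose and 57 fell (list median -0.41, all peaks -0.58). The excess of rises over all peaks rested on a single gene: 16 of 26 peaks of Ebf3, a transcription factor of neurons, rose and 1 fell. With the trend removed 13 of its peaks rose and 0 fell. In the other genes of the list together, the share of rises lay below that of all peaks in both forms. Ebf1, of the same family, had 4 of 13 peaks higher.

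The Ebf3 peak with the smallest p value lay in an intron, 9598 bases from the annotated start (chr7:137277136-137278684). It had 1.90, 2.17 and 2.11 CPM on day 0 and 3.81, 4.33 and 4.81 CPM on day 1, without overlap (log2 fold change 1.07 ± 0.17, SE; edgeR adjusted p = 0.0003). The value was 1.05 with the trend removed (adjusted p = 0.00317), 1.01 with all libraries and batch (adjusted p = 0.0131) and 0.80 with share of reads as a further term (adjusted p = 0.176). In the fit with all libraries, batch and share of reads, 3 other Ebf3 peaks were called higher, at 1.01, 1.13 and 1.13 on the log2 scale. Ebf3 RNA fell by 0.33 on the log2 scale (adjusted p = 0.0286), from 675, 651 and 780 CPM to 550, 613 and 507 CPM. That call was lost when only the libraries of days 0 and 1 were fitted (adjusted p = 0.0868), and without RNA day 0 replicate 3, day 1 replicate 1 or day 1 replicate 3.

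Of 47 promoter peaks of identity genes, 4 rose and 6 fell, with a median log2 fold change of 0.16. Of all promoter peaks 8.67% rose and 31.9% fell. Nefh, the heavy neurofilament, had 47.9, 48.9 and 40.5 CPM on day 0 and 31.2, 29.7 and 24.8 CPM on day 1 (log2 fold change -0.68 ± 0.10, SE; edgeR adjusted p = 0.000164), and its RNA fell too (-0.44, adjusted p = 0.0201, or 0.0645 with only the libraries of days 0 and 1). The call at the peak held with the trend removed (-0.28, adjusted p = 0.0421) and was lost with all libraries and batch (-0.48, adjusted p = 0.0785) and with share of reads as a further term (0.04, adjusted p = 0.934). The promoter peaks of Pou4f1, Pou4f2, Rbpms and Thy1 had log2 fold changes of -0.15, 0.17, 0.11 and 0.19, none past the threshold, while RNA of all 4 genes fell, by 0.46, 0.41, 0.56 and 0.28 on the log2 scale. The RNA call of Thy1 was lost with only the libraries of days 0 and 1 (edgeR adjusted p = 0.0518), and that of Pou4f2 without RNA day 1 replicate 3 (adjusted p = 0.0686). Once the trend was removed the Thy1 peak was higher (0.47, adjusted p = 0.0225). In RNA of the identity list, 13 of 22 genes fell and 0 rose.

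Lists of the injury response were read against their RNA, and against the 14.8% of all peaks that rose and the 14.5% that fell. For the integrated stress response, 29 of 35 genes rose in RNA and 0 fell, while of 134 peaks 15 (11.2%) rose and 29 (21.6%) fell, and with the trend removed 10 and 2. The axon injury list had 16 of 26 genes higher in RNA and 0 lower, with 25 of 201 peaks higher and 31 lower, or 14 and 10 with the trend removed. Of 122 peaks of cell death genes, 7 rose and 31 (25.4%) fell, or 3 and 6 with the trend removed, and 6 of 25 genes rose in RNA. With library size only the balance turned in all 3 lists, to 30 rises and 11 falls, 60 and 9, and 29 and 16, in the order given, and scaled to uniquely mapped reads it was 1 and 90, 3 and 117, and 0 and 84. In all 3 lists the share of falls with the trend removed, between 1.49% and 4.98%, lay below the 5.66% of all peaks. Their shares of rises, 7.46%, 6.97% and 2.46% in the order given, lay below the 7.85% of all peaks too.

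Atf4, the central factor of the integrated stress response, shows the pattern. Its promoter peak (chr15:80252696-80262465) had 185, 164 and 169 CPM on day 0 and 146, 134 and 132 CPM on day 1, a log2 fold change of -0.33 ± 0.06 (SE; edgeR adjusted p = 0.0012) that became 0.20 with the trend removed (adjusted p = 0.0174). Its RNA rose 1.67-fold. Cebpg, which pairs with ATF4, likewise went from -0.30 (adjusted p = 0.00778) to 0.15 (adjusted p = 0.126) on the log2 scale, beside a 2.06-fold rise of its RNA. Atf5 and Xpot, which exports tRNA, fell by 0.43 and 0.58 at their promoters, and stood at 0.04 and -0.14, past no threshold, with the trend removed. The promoter peak of Atf3, an AP-1 partner induced by axon injury, had 1.17, 0.82 and 1.31 CPM on day 0 and 1.61, 1.39 and 1.59 CPM on day 1, with no overlap. Its log2 fold change of 0.49 ± 0.23 (SE) had an adjusted p of 0.114, beside a 14.3-fold rise in RNA (edgeR adjusted p = 1.1e-10).

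For Jun and Ddit3 no peak carried the gene's name, and peaks covering their promoters were picked after the values were seen. The peak over the Jun promoter, annotated to Gm12703 (chr4:95044627-95055660), had 237, 231 and 218 CPM on day 0 and 193, 174 and 235 CPM on day 1, with overlap (log2 fold change -0.19 ± 0.08, SE; edgeR adjusted p = 0.098). After trend removal it was 0.37 (adjusted p = 0.0147), with the replicate number as a block -0.20 (adjusted p = 0.0388), and without day 1 replicate 3 -0.33 (adjusted p = 0.00641). The peak over Ddit3, annotated to Mbd6, fell by 0.43 on the log2 scale and was at 0.12 (adjusted p = 0.077) with the trend removed. Sox11, a factor of axon growth, had a promoter log2 fold change of 0.19 ± 0.17 (SE; adjusted p = 0.425), beside a 7.49-fold rise in RNA. Hrk, a cell death gene that JNK signalling induces, had -0.16 ± 0.14 (SE; adjusted p = 0.422) at its promoter and a 19.9-fold rise in RNA. Gap43, a growth cone protein, passed the threshold neither at its promoter (-0.16, adjusted p = 0.429) nor in RNA (0.01, adjusted p = 0.961).

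The DLK and JNK list had 26 of 203 peaks (12.8%) higher and 26 lower, near the 14.8% and 14.5% of all peaks. With the trend removed 18 (8.87%) were higher and 4 (1.97%) lower, against 7.85% and 5.66%. Of the 26 falls, 17 were among the list's 56 promoter peaks, and of all promoter peaks 31.9% fell. These 17 held the promoters of Map3k12, which encodes DLK (-0.52 on the log2 scale), and Mapk8, which encodes JNK1 (-0.55). Neither was called with the trend removed. Dusp16, a phosphatase that acts on JNK, held 8 rises among 21 peaks, and Mapk10, which encodes the neuronal JNK3, 10 among 20. The promoter peak of Dusp16 (chr6:134760417-134762455) had 2.91, 2.67 and 4.13 CPM on day 0 and 5.70, 5.62 and 8.69 CPM on day 1, without overlap. Its log2 fold change was 1.05 ± 0.20 (SE; edgeR adjusted p = 0.00129) and 1.13 with the trend removed (adjusted p = 0.00522). With all libraries and batch it was 0.65 (adjusted p = 0.202), and with share of reads as a further term 0.10 (adjusted p = 0.927). Day 0 libraries of batch 1 had 6.96 to 14.0 CPM. Dusp16 RNA rose 17.6-fold, from 5.79, 4.62 and 6.73 CPM to 106, 101 and 95.5 CPM.

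Creb5, a factor of the ATF family, had the largest relative rise in RNA among the genes named here, from 0.22, 0 and 1.09 CPM to 29.2, 37.8 and 37.8 CPM. The peak closest to its first annotated start (chr6:53285426-53290823) had a log2 fold change of -0.00 ± 0.13 (SE; edgeR adjusted p = 0.985). A second promoter peak (chr6:53570947-53584404), chosen after its value was seen, covers the RefSeq promoter window at chr6:53573124-53573423, printed here because it holds an AP-1 site, TGANTCA on either strand, in capitals.
Creb5: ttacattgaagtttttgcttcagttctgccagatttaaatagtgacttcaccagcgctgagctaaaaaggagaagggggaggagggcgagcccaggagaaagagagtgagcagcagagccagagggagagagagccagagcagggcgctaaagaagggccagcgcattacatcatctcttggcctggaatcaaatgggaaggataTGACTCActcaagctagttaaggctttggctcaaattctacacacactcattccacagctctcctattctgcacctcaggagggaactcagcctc
This peak had 44.2, 45.1 and 49.4 CPM on day 0 and 59.8, 47.5 and 72.4 CPM on day 1, where replicate 2 lay inside the day 0 range. The log2 fold change was 0.37 ± 0.11 (SE; adjusted p = 0.0214), 0.80 with the trend removed (adjusted p = 0.0023) and 0.13 with all libraries, batch and share of reads (adjusted p = 0.823). Leaving out day 0 replicate 1, day 1 replicate 1 or day 1 replicate 3 ended the call (adjusted p = 0.0533, 0.0593 and 0.183). Among promoter windows inside a peak, 949 held the AP-1 letters, of whose peaks 55 (5.80%) rose and 509 (53.6%) fell with standard scaling, against 2.78% and 69.2% of all windows. Of the same peaks, 125 (13.2%) were higher and 55 (5.80%) lower with the trend removed, against 9% and 7.19%. The letters TGACGTCA of the cyclic AMP response element were in 501 such windows, of which 7 (1.40%) rose and 398 (79.4%) fell with standard scaling, while 52 (10.4%) were higher and 0 lower with the trend removed.

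Immediate early genes, which neurons switch on within minutes of activity, had 9 of 72 peaks (12.5%) higher and 13 (18.1%) lower. Of all peaks 14.8% rose and 14.5% fell. Once the trend was removed the balance became 16 (22.2%) higher and 1 (1.39%) lower, against 7.85% and 5.66%, and with all libraries and batch and share of reads none was called. Nr4a3 and Btg2 show it: their promoter peaks stood at -0.33 and -0.27 on the log2 scale, and at 0.21 and 0.31 with the trend removed (edgeR adjusted p = 0.00743 and 0.0028). In RNA 5 of 19 genes of the list rose and 1 fell.

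Excitability and synapse genes had 60 of 355 peaks (16.9%) higher and 27 (7.61%) lower, against 14.8% and 14.5% of all peaks. With the trend removed 32 (9.01%) and 16 (4.51%) were called, against 7.85% and 5.66%, so the rises lay near the share of all peaks. In RNA 14 of 41 genes fell and 0 rose. Scaled to uniquely mapped reads, 10 peaks rose and 171 fell. The promoter of Vamp1, a synaptic vesicle protein, fell by 0.67 on the log2 scale and was also called with the trend removed (-0.35, edgeR adjusted p = 0.0188) but not with all libraries, batch and share of reads (-0.25, adjusted p = 0.501). Of the 60 rises, 6 were promoters. Among the others were 6 of 19 peaks of Gria1, an AMPA receptor subunit, and 5 of 16 of Grin2a, an NMDA receptor subunit. The Gria1 peak with the smallest p value lay 85498 bases from the start, with 0.46, 0.58 and 0.63 CPM on day 0 and 1.58, 1.69 and 3.15 CPM on day 1 (log2 fold change 1.93, edgeR adjusted p = 0.000199, and 0.34 with all libraries, batch and share of reads, adjusted p = 0.787).

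Promoter peaks and RNA were compared over 11842 genes that had both. Where RNA rose (726 genes), 30 promoter peaks rose and 429 fell with standard scaling, a median log2 fold change of -0.36 against -0.39 for all 11842. After trend removal 85 (11.7%) rose and 52 (7.16%) fell, against 7.12% and 7.55% of all. Where RNA rose at least 2-fold (298 genes), 42 (14.1%) and 23 (7.72%) did so. Where RNA fell (665 genes), 57 (8.57%) promoter peaks were higher and 40 (6.02%) lower with the trend removed.

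Timp3, Adamts1 and Slc7a5 are examples, chosen after their values were seen, in which promoter and RNA rose together. Timp3, an inhibitor of metalloproteinases, had 37.3, 37.5 and 48.4 CPM on day 0 and 88.9, 79.6 and 152 CPM on day 1 at its promoter peak (chr10:86299534-86324130), a log2 fold change of 1.38 ± 0.18 (SE; edgeR adjusted p = 8.8e-05) beside a 4.18-fold rise in RNA. The day 0 libraries of batch 1 had 109 to 158 CPM there, and with all libraries and batch the value was 0.71 (adjusted p = 0.287), or -0.18 with share of reads as a further term (adjusted p = 0.883). Adamts1, a secreted metalloproteinase, gave 0.90 ± 0.17 (SE; adjusted p = 0.00127), 0.52 with all libraries and batch (adjusted p = 0.282) and 0.01 with share of reads as a further term (adjusted p = 0.993). Slc7a5, an amino acid transporter and a target of ATF4, went from 3.31, 3.06 and 3.47 CPM to 4.61, 5.60 and 5.30 CPM (0.66 ± 0.15, SE; adjusted p = 0.0041) and was called with all libraries and batch (0.65, adjusted p = 0.0247) but not with share of reads as a further term (0.43, adjusted p = 0.365). Its RNA rose 3.51-fold.

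Some of the large rises lay in clusters. Of 1175 peaks that rose by at least 1.5 on the log2 scale with a mean count of at least 20, 213 (18.1%) fell into 10 segments in which at least 5 such peaks followed each other within 100 kb. The longest list of peaks was on chromosome 1 around Gm16026 (chr1:84986191-85345762), where 67 of 70 peaks rose. Others lay on chromosome 13 around Gm18262 (60 of 61), chromosome 17 around Smok2b (40 of 46), 2 stretches of zinc finger genes on chromosome 4 (20 of 23 and 18 of 18) and chromosome X around Btbd35f25 (17 of 17). Such stretches may hold similar gene copies, and whether reads were placed on the right copy was not tested. The counts of their peaks are therefore uncertain. Of the 1175 peaks, 1036 stayed called with the trend removed and 15 with all libraries, batch and share of reads.

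The largest single rise by the naming rule was in the chromosome 1 segment, in an intron near Gm18342 (chr1:85087419-85087757), from 0.34, 0.32 and 0.35 CPM to 2.63, 2.00 and 2.15 CPM (log2 fold change 2.73 ± 0.24, SE; edgeR adjusted p = 4.6e-05). With all libraries, batch and share of reads it was 0.22 (adjusted p = 0.817). The second, in an exon near Gm43755 on chromosome 5, rested on 1 library: day 1 replicate 1 had 5.60 CPM, and replicates 2 and 3 had 1.11 and 1.28 CPM, against 0.30 to 0.57 CPM on day 0. Summed over the chromosome 1 segment, the level was 159 to 199 CPM on day 1, 44.2 to 66.8 CPM on day 0 of batch 2 and 84.7 to 169 CPM on day 0 of batch 1. On day 3 the 2 libraries with over 40% of reads in peaks had 77.4 and 84.1 CPM, and the 4 others 130 to 227 CPM.

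**Figure D4:**
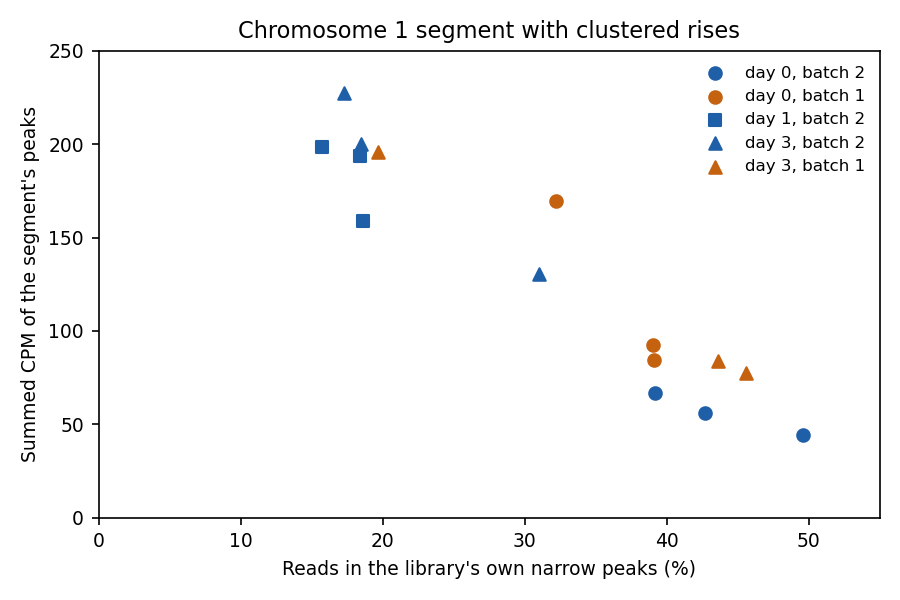
Summed CPM of the 70 peaks of the chromosome 1 segment around Gm16026 in each of the 15 ATAC libraries (vertical axis) against the share of reads in the library's own narrow peaks, in percent (horizontal axis). Shapes mark the day and colours the batch. The 5 libraries with the highest sums, between 193 and 227 CPM, have at most 19.7% of reads in peaks, on days 1 and 3 alike. The 3 day 0 libraries of batch 2 have the lowest sums.

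Motif scores, deposited by the authors from chromVAR, give for each of 1312 motifs how far the accessibility of the peaks that hold it departs from that of background peaks, as a z-score. On day 1, 113 motifs (8.61%) scored higher and 957 (72.9%) lower (limma, adjusted p under 0.05). The median over all motifs was 5.60, 2.77 and 3.78 in day 0 replicates 1 to 3 and -4.26, -5.57 and -6.23 in day 1 replicates 1 to 3, so each library was also centred on its own median, which gave 446 motifs (34%) higher and 335 (25.5%) lower. With all libraries, batch and share of reads, 35 (2.67%) were higher and 871 (66.4%) lower. Centring reversed single motifs, and both forms are given below. Motifs of a family share letters and are not independent of each other.

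Motifs of IRF proteins fell together. All 22 were lower with the raw scores, centred, and with all libraries, batch and share of reads, and 8 of 22 were lower with the share of reads as a term in the 6 libraries. After centring, the family median was 7.38, 8.27 and 15.1 on day 0 and -15.9, -18.0 and -9.68 on day 1, with no overlap. Batch 2 libraries of day 3 were at 4.49, 2.25 and -1.19, and batch 1 libraries of both days between -4.39 and 4.49, so that the 3 day 1 libraries were the lowest of all 15. IRF9 changed by -44.5 ± 4.38 (SE; limma adjusted p = 0.000324), from 16.2, 13.2 and 23.7 to -24.1, -35.8 and -20.7. SPI1, a factor of macrophages and microglia, changed by -41.2 ± 3.09 (SE; adjusted p = 0.000295), and all 56 motifs of its ETS family were lower, or 40 after centring.

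CTCF had the largest fall, of -47.4 ± 3.75 (SE; limma adjusted p = 0.000295): its score was 29.4, 30.4 and 38.4 on day 0 and -11.8, -10.2 and -22.1 on day 1. Both CTCF motifs were lower in each form except with the share of reads as a term in the 6 libraries, where 0 of 2 were called. Day 3 libraries, whatever their share of reads in peaks, lay at -15.0 to -27.4 after centring, beside -4.26 to -16.2 on day 1 and 4.73 to 33.2 on day 0 of both batches. OTX1, of the CRX and OTX family, fell by 42.3 ± 5.52 (SE; adjusted p = 0.000648). In the CRX and OTX family the day 1 libraries spread widely, with centred medians of -0.98, 10.4 and -20.4.

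The count of AP-1 motifs called depended on the form. All 23 motifs of FOS, JUN and BATF proteins were higher once centred (5 when also divided by each library's SD), 10 were higher and 1 lower with raw scores, and 21 were higher and 1 lower with all libraries, batch and share of reads. With the share of reads as a term in the 6 libraries 0 were called, and the family's median difference turned to -7.98. The centred family median was -30.4, -30.2 and -25.5 on day 0 and 4.82, -20.2 and 4.37 on day 1, so day 1 replicate 2 lay apart from the other day 1 libraries and closer to day 0. Without it, 21 were higher and 1 lower with raw scores, and leaving out any day 0 library or day 1 replicate 1 left 2 higher and 1 lower. On day 3 the median was 22.4 to 56.6 in all 6 libraries, those with 45.6% and 43.6% of reads in peaks included. JUNB, chosen after its value was seen, went from -28.4, -29.9 and -24.7 to 2.24, -25.8 and -2.32 (difference 19 ± 6.76, SE; limma adjusted p = 0.0328, and 0.0168 after centring).

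NFI motifs, bound by factors of glia and of late-born neurons, rose as a family. All 6 were higher with raw and centred scores and under each left-out library, 5 of 6 with all libraries, batch and share of reads, and 0 with the share of reads as a term in the 6 libraries. NFIA rose by 20.3 ± 3.10 (SE; limma adjusted p = 0.00111), from -15.6, -14.4 and -16.7 to -1.04, 3.77 and 11.6. The largest rise of a single motif was that of EN1, a homeodomain factor (23.5 ± 5.29, SE; adjusted p = 0.0055), in which day 1 replicate 3 reached 12.4 and replicates 1 and 2 stayed at -6.97 and -8.74. Its difference was 11.4 with all libraries, batch and share of reads (limma adjusted p = 0.23). The 3 motifs of ATF4 and CHOP were all higher after centring, 2 of them with raw scores, and none with all libraries, batch and share of reads. DDIT3, which is CHOP, changed by 4.04 ± 1.47 (SE; adjusted p = 0.0358), and leaving out any 1 library ended the call.

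**Figure D5:**
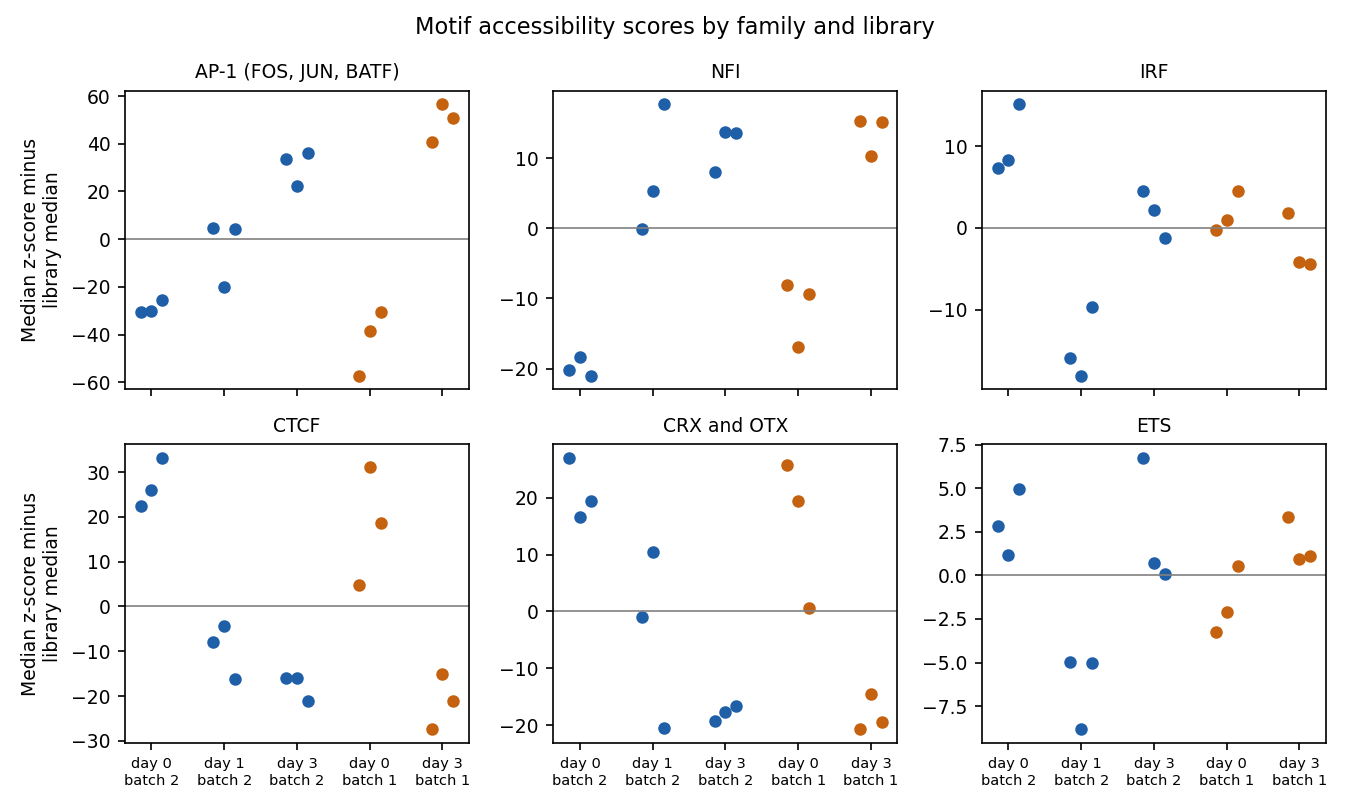
Median chromVAR z-score of the motifs of a family minus the median of all motifs in the same library, for 6 families, in each of the 15 ATAC libraries (points), by day and batch. The vertical scales differ between panels. IRF scores are lowest in the 3 day 1 libraries (-9.68 to -18.0), AP-1 scores are highest on day 3, with day 1 replicate 2 at -20.2, and NFI scores of days 1 and 3 lie above those of day 0. These directions hold for centred scores, and for raw scores AP-1 holds 10 motifs higher and 1 lower.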

How the data were processed

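The members, gene lists and motif families were chosen with earlier results of these data known. Per the submitters' processing notes, the authors used Bowtie2, MACS2, featureCounts and ChIPseeker, among other tools, on GRCm38 (mm10). No source used here gives their versions. As deposited by the authors, values are whole-number counts per shared ATAC peak and per gene, and per-library totals as counts. Per the file headers, the deposited covariate table gives the fraction of reads in narrow peaks and the duplicate rate (printed here as percent) and the enrichment at transcription starts as a ratio. Narrow peak lists hold the authors' peak calls per library, with a fold enrichment ratio used only to read the lists. Motif values are the authors' deposited chromVAR z-scores (score), and the authors' deposited table of this comparison holds a log2 fold change and an adjusted p-value per peak. The description label of each ATAC sample names the peak file of another sample, so columns and files were matched by sample title.

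Peaks and genes were filtered with filterByExpr, scaled with TMM and tested with edgeR 4.0.16 (quasi-likelihood F test, Benjamini-Hochberg) under R 4.3.3. The peak fit used the 6 libraries only. RNA was fitted over the 13 RNA libraries with values, which share 1 estimate of spread. Motif scores were tested with limma 3.58.1, and overlaps of at least 1 base were found with bedtools 2.31.1. The trend was removed with lowess (span 0.3) on log2 counts with a pseudocount of 2. CPM values are scaled over the 6 libraries, except where all 15 are named. Called means an adjusted p under 0.05. The edgeR tests were tried on simulated counts with known changes, and the limma test on simulated scores. The simulated peak counts held no trend of the change with peak strength, so they do not show how the test behaves under it.

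Peaks were named by rule: the 10 largest rises and the 10 largest falls among called peaks whose mean count reached 20 and whose groups did not overlap, the tested peak closest to the start of 14 genes of the injury response and RGC identity, and the 2 peaks with the smallest p value of each list other than cell markers. Motifs were the 10 largest rises and falls and the motif with the smallest p value of each family. Peaks, genes and motifs named outside this rule (among them Tap1, Psmb8, Irf7, Irf9, Ifit1, Ifih1, Slc1a3, Kdr, Tyrobp, Sag, Mapk8, Btg2, Gria1, Timp3, Adamts1, Slc7a5, the peaks over Jun and Ddit3, and JUNB) were chosen after their values were seen. Replicates with the same number deviated together (correlations of 0.139, 0.119 and 0.243 over peaks), which by the rule set for these numbers pairs them, although no label says what they share. Replicates with unlike numbers had correlations of -0.141 to -0.0143. Deviations within a group sum to 0, so the 2 sets of correlations are not independent. The main fits did not use this pairing. The alternatives tried were other scalings, filters, DESeq2 1.42.0, a replicate block, batch and share-of-reads terms, and leaving out each library. The scaling to uniquely mapped reads and the fits to all libraries with batch and share of reads were chosen after seeing the data. Some genes of the lists are not reported here.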

Additional observations from a re-analysis of the deposited data

How the results depend on the processing

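Beside the 44424 peaks called, the trend with peak strength removed gave 20483 (11898 higher, 8585 lower), all libraries with batch as a term 11884 (8249 and 3635), the same with the share of reads in peaks 895 (855 and 40), the share of reads as a term in the 6 libraries 0 (0 and 0), scaling to uniquely mapped reads 86389 (3881 and 82508), and a log2 fold change of at least 1 as well 8559 (8232 and 327). With library size only, 44657 were higher and 8381 lower. The replicate block gave 51241 peaks, 1089 motifs and 1535 RNA genes, and among the named results it changed the call of the peak over Jun and of Tgtp2 RNA (log2 fold change 3.49, edgeR adjusted p = 0.0228). Of 1312 motifs, centring gave 446 higher and 335 lower, centring and division by the library's SD 561 (267 and 294), the share of reads as a term 77 (0 and 77), and all libraries with batch and share of reads 35 higher. RNA gave 815 genes (407 and 408) with only days 0 and 1, and DESeq2 called 1252 lower. The causes were not tested.

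Leaving out 1 library gave 31579 to 45686 peaks, 13073 to 22853 higher (lowest without day 1 replicate 3) and 17201 to 22833 lower. For motifs it gave 933 to 1061, 77 to 150 higher and 847 to 940 lower. For RNA it gave 1024 to 1563 genes, 486 to 855 higher (lowest without day 1 replicate 1) and 446 to 836 lower (lowest without day 1 replicate 3). The difference in share of reads was -28.6 to -23.4 percentage points.

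These single values turned direction, as log2 fold changes. Trend removal gave Atf4 0.20, Cebpg 0.15, Pou4f1 0.20, Hrk 0.023, the first Creb5 peak 0.38, Stat3 0.055, Atf5 0.041, Nr4a3 0.21, Fos 0.23, Tyrobp 0.17, Gm12703 0.37 and Mbd6 0.12. With the trend with GC content removed, Sox11 was -0.12 and Pou4f2 -0.10. With library size only, Pou4f1 was 0.11, Hrk 0.095, Creb5 0.25, Gap43 0.092 and Gm12703 0.065. With the share of reads as a term in the 6 libraries, Gm43755 was -1.70, Duxf3 -0.19, Gm12175 -0.47, Gm23215 -1.63, Gm16025 -1.40, Atf3 -1.20, Hrk 0.99, Dusp16 -0.037, Creb5 0.057, Gap43 0.28 and Gm12703 0.0086. With all libraries, batch and share of reads, Duxf3 was -0.10, Gm16025 -0.018, Ighv1-68 -0.76, Atf3 -0.39, Rbpms -0.065, Gap43 0.014, Nefh 0.042 and Timp3 -0.18. The first Creb5 peak, near 0, was 0.0015 when only peaks of mean count 20 or more were tested, and -0.22 to 0.16 when single libraries were left out. Among motif differences, centring turned BATF3 to 2.86, CREB3L2 to 1.79, POU4F1 to 1.94, COE1 to 2.10, NRF1 to 0.52 and NR1D1 to 0.65, and with division by the SD BATF3 was 0.39, CREB3L2 0.22, TEF 0.053, POU4F1 0.15, COE1 0.21 and NRF1 0.27. JUNB was -6.20 with the share of reads as a term, and DDIT3 -1.46 with all libraries, batch and share of reads.

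The share of reads in broad peaks was not run, since the covariate table used gives none. With 3 libraries a group, an exact test of a single value cannot go below 0.1. Counts in peaks were lower on day 1, so weak peaks have fewer counts behind them there. Values of day 1 exist in batch 2 only.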
